A study of Homo sapiens with 59 samples.

Results

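H3K4me3 was profiled by ChIP-seq in the shDPPA2+4 line, in which DPPA2 and DPPA4 are knocked down together, and is described here from 4 libraries, all that carry this line and this mark, of 59 samples in the series. They were 2 libraries from cells given doxycycline (DOX, 2 µg/ml for 7 days, which turns the hairpins on) and 2 from cells given water (H2O), each treatment with a replicate 1 and a replicate 2. The cells are NCI-H661, an established large cell lung carcinoma line, and the shDPPA2+4 line is a bulk sorted population that carries both tetracycline-inducible microRNA-embedded hairpins on PiggyBac vectors, so both treatments share the vectors and differ in induction alone. Of the 51 samples with a peak list, 12 hold H3K4me3, 4 of them from each of the shDPPA2, shDPPA4 and shDPPA2+4 lines. No H3K4me3 library of a line with a non-targeting hairpin is among these samples, so an effect of doxycycline or of hairpin induction as such and an effect of losing the proteins cannot be told apart.

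DPPA2 and DPPA4 are small paired nuclear proteins with a SAP domain that are normally made in the early embryo, in pluripotent cells and in germ cells, and that some tumours switch back on. H3K4me3 is laid down by COMPASS-type complexes (SETD1A, SETD1B and KMT2 enzymes with WDR5, RBBP5, ASH2L and DPY30) at CpG-rich promoters of active genes, where CXXC1 links the enzyme to unmethylated CpG. It also lies beside H3K27me3 at poised, bivalent promoters, the class that needs DPPA2/4 in mouse embryonic stem cells, and it spreads into broad domains at genes of cell identity.

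A domain here is a run of enriched bins that the peak caller joined, kept when its ChIP reads exceeded input by more than 1.0 on the log2 scale. A promoter is the window of 1500 bp to each side of the start of a protein-coding gene's canonical transcript, and it was counted as marked when at least 300 bp of it lay under domains. Of the promoters that went from marked to unmarked or the reverse with DOX, the sequence of 4 is printed beside the promoters of the targeted genes, to show how far the CpG content of such promoters differs. Each sequence is 300 bases from RefSeq on GRCh38.p14, written 5′ to 3′ on the gene's strand from 250 bases before to 50 bases after the start, with every CG dinucleotide in capitals. They are DPPA2 (chr3:109316468-109316767, minus strand), DPPA4 (chr3:109337497-109337796, minus), TLR6 (chr4:38856768-38857067, minus) and LRRN1 (chr3:3799181-3799480, plus), both of which lost the mark, and MAT1A (chr10:80289609-80289908, minus) and FAM110C (chr2:46456-46755, minus), both of which gained it.
DPPA2: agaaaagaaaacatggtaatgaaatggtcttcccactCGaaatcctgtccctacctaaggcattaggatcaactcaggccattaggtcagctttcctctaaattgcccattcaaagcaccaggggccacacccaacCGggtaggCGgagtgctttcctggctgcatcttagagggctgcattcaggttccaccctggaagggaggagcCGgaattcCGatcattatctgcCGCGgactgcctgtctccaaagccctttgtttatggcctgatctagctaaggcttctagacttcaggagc
DPPA4: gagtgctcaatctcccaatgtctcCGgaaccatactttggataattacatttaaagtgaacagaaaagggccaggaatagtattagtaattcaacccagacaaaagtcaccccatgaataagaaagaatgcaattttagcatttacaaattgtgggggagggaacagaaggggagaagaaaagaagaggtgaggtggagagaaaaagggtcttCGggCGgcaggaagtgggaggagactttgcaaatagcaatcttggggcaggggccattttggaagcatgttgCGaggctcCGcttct
TLR6: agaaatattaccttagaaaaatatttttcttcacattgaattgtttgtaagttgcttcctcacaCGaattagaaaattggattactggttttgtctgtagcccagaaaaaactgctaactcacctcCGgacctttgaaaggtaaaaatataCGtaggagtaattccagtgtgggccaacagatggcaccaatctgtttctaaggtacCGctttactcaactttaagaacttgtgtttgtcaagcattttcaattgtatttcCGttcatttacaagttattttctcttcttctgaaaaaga
LRRN1: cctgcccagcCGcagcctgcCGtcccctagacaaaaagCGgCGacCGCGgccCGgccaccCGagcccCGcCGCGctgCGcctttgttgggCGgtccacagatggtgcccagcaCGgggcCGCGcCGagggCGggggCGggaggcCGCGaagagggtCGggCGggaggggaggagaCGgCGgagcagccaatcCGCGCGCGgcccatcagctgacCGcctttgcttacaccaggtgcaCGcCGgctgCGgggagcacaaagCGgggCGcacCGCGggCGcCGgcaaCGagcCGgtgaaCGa
MAT1A: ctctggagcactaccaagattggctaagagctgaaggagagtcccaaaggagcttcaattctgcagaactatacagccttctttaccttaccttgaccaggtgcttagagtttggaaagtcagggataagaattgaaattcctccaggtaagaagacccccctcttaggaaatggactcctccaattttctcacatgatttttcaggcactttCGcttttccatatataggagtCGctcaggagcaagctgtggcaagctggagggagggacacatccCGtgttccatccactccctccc
FAM110C: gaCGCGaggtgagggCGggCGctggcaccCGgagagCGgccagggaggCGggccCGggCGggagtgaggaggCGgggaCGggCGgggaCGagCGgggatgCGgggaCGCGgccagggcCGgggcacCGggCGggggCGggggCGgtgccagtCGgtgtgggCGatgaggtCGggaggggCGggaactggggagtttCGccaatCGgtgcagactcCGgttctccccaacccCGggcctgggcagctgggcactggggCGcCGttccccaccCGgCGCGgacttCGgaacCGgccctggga

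These windows hold 7 CG in DPPA2, 5 in DPPA4, 5 in TLR6, 42 in LRRN1, 3 in MAT1A and 37 in FAM110C. Over all 35116 RefSeq promoters of the same length the median was 14 CG, 96.04% held at least 1 CG, and the count is the same on both strands. Promoters marked in all 4 libraries had a median of 26 CG (10985 of 13873 matched by symbol) and promoters marked in no library a median of 4 (4103 of 5787 matched). RefSeq windows of the genes that changed class gave medians between these groups. The median was 10 CG over 20 of the 24 that gained the mark and 5 over 5 of the 6 that lost it. Windows were matched by symbol, so some lie at another start than the canonical one used for the class. For DDT, which lost the mark, the window was chr22:23980455-23980754 and the classed start 23974441. The windows of MARCHF1 and MIA, which also lost the mark, lay at other starts than the classed 164384019 and 40775521. Of the lost promoters with a window, only TLR6 (5 CG) and LRRN1 (42 CG) had it at the classed start. The median of 5 CG therefore does not describe the classed starts of that group. The window of FGF14, which gained the mark, also lay at another start.

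The 4 libraries kept the outline of the mark. H2O replicates 1 and 2 held 30672 and 30997 domains, and DOX replicates 1 and 2 held 31625 and 29891. The domains covered 65.16 and 66.28 Mb with H2O and 66.97 and 70.23 Mb with DOX, and marked 13993, 14054, 14002 and 14155 of 20007 protein-coding promoters in the same order. The number of domains rose by 953 from H2O to DOX in replicate 1 and was lower by 1106 in replicate 2, so the 2 DOX libraries lay on either side of both H2O libraries. The base pairs under domains in any 2 of the 4 libraries overlapped to much the same degree, with a Jaccard index of 0.791 between the H2O libraries, 0.782 between the DOX libraries and 0.778 to 0.796 across treatments.

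DOX replicate 2 was the deepest library of the line. The domains held 8814290 and 10199953 ChIP reads with H2O, 9252289 in DOX replicate 1 and 15285727 in DOX replicate 2, and 135.3, 153.9, 138.1 and 217.6 reads per kb of domain. Its median domain width was 2000 bp against 1800 bp in each of the other 3 libraries, and its median distal width 1200 bp against 1000 bp, the order in which depth differed. The part of depth in these differences was not tested. Reads per kb and covered length were higher with DOX in both pairs here and in all 4 pairs of the shDPPA2 and shDPPA4 lines. Reads per kb rose by 2.878 and 63.76 here, and by 26.38 to 85.89 there. Covered length rose by 1.813 and 3.951 Mb here, and by 2.011 to 9.69 Mb there. In the shDPPA2 and shDPPA4 lines the number of domains was lower with DOX in all 4 pairs (differences of -361 to -1371), and an exact two-sided permutation test of the shDPPA2+4 pairs against those 4 pairs gave p = 0.133 (smallest possible 0.0667, adjusted p = 0.667 over the 23 library measures compared). With 2 pairs, an exact two-sided sign-flip permutation test within the line cannot give a p below 0.5.

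**Figure D1:**
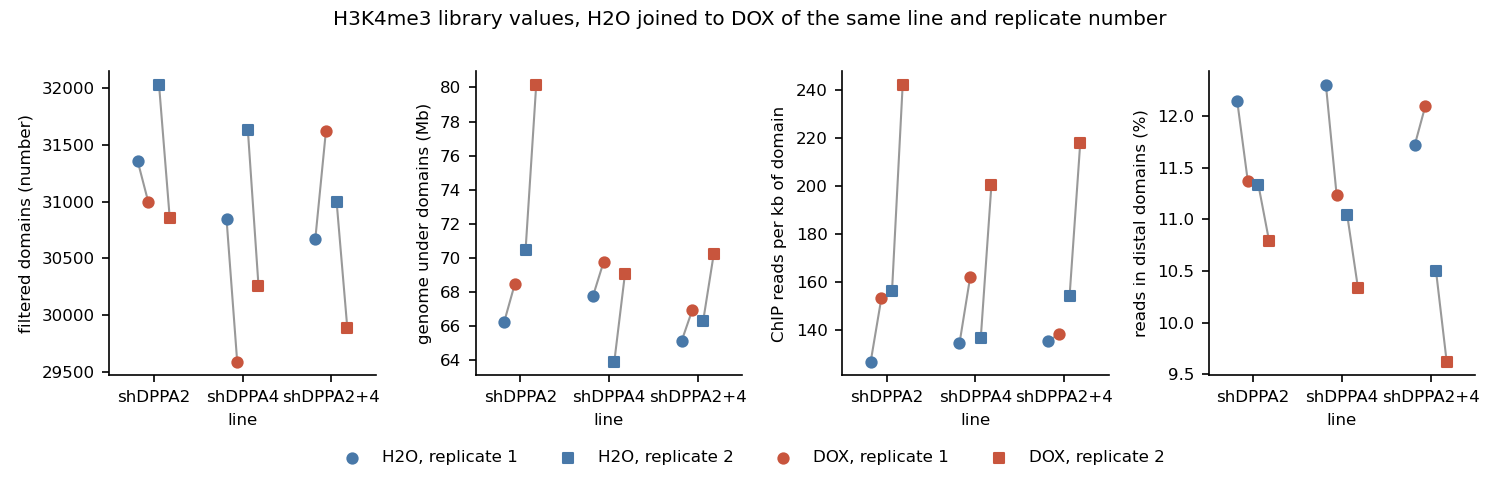
Number of domains, genome under domains in Mb, ChIP reads per kb of domain and percent of reads in distal domains for the 12 H3K4me3 libraries, H2O (blue) joined to DOX (red) of the same line and replicate number. In shDPPA2+4 the domain number and the distal share rise in replicate 1 and fall in replicate 2, and DOX replicate 2 has 217.6 reads per kb, the highest of that line.

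Promoter-overlapping domains carried most of the mark. They were 12812 and 12877 domains with H2O and 12812 and 12859 with DOX, and held 76.72%, 78.12%, 76.34% and 79.01% of the reads in domains. Distal domains, those with no annotated start of any gene within 1500 bp, numbered 13035 and 13225 with H2O and 13892 and 12261 with DOX, and held 11.72%, 10.5%, 12.1% and 9.622% of the reads. Both shares moved in opposite directions in the 2 pairs, so no direction of either share was common to them.

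Epithelial markers carried the mark about as often as all protein-coding promoters, and markers of other cells less often. Each of the 4 libraries marked 69.94% to 70.75% of all 20007 promoters. Of 6 epithelial markers, the promoters of 4 (EPCAM, KRT18, KRT19 and CDH1) were marked in all 4 libraries, and those of KRT8 and CLDN4 held no domain at the canonical start. Of 15 markers of blood, endothelial, liver, muscle and nerve cells, 10 held no domain in any library, among them PTPRC, CD3E, PECAM1, CDH5 and ALB. The 4 that were marked in every library were APOA1, MYOD1, SNAP25 and SYN1, with 2371 and 2171 bp under domains at MYOD1 in the H2O libraries and 2171 and 2371 bp in the DOX libraries, and 379 bp at APOA1 in both H2O libraries and 479 bp in both DOX libraries.

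The targeted genes kept their own H3K4me3. The hairpins act on the messenger RNA, so the mark at these promoters does not check the knockdown. All 3001 bp of the DPPA2 and the DPPA4 promoter windows lay under domains in all 4 libraries. The DPPA2 domain (chr3:109312801-109319400, hg38) held 69.8 and 61.6 scaled reads with H2O and 66.6 and 57.4 with DOX, a scaled read being a CPM value whose library size was set by TMM over the tested regions. The DPPA4 domain (chr3:109332201-109340700) held 130, 131, 129 and 139 in the same order. The groups overlapped at both genes, with log2 differences of -0.09 ± 0.07 (SE, edgeR adjusted p = 0.646) at DPPA2 and 0.04 ± 0.05 (adjusted p = 0.827) at DPPA4.

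Across the genome no region's H3K4me3 reads were called changed. Domains of all 12 libraries were merged into regions, and 22060 regions with a domain in every library were fitted together with edgeR's quasi-likelihood test, with replicate number as a block. At adjusted p under 0.05 and a log2 fold change of at least 0.5 in size, 0 of 22060 were called in shDPPA2+4 (0.0%). The smallest adjusted p was 0.0543. DESeq2 also called 0, but its smallest adjusted p was 0.00178, at a fold change short of 0.5. With a mean of at least 50 reads, edgeR again called 0, with a smallest adjusted p of 0.0467. At an unadjusted p under 0.05, 1277 regions (5.79%) were higher and 1181 (5.35%) lower with DOX, and 722 passed with DESeq2. Of all tested regions, 96.76% had a fitted change within 0.5 of 0 on the log2 scale, with 99.17% of 12290 promoter regions and 92.21% of 6137 distal regions.

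The count depends on 1 library and on the test. Without DOX replicate 1, whose partner then carries the contrast alone, 284 regions were called, 48 higher and 236 lower, against 0 when any other shDPPA2+4 library was left out, and the likelihood ratio test that the study names called 53, 26 higher and 27 lower. All changes are relative to the median region, since the mouse spike-in reads of the study were not used here. Library totals recovered from the fold and input columns put the median of all regions at 0.21 higher with DOX when input depth was read at H3K4me3 domains and at -0.09 when it was read at H3K27me3 domains of the same line, so the direction of any change shared by all regions was not settled. A lower level of the mark in every cell and its loss from some of the cells cannot be told apart in bulk libraries.

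The 2 pairs agreed little from region to region. The log2 difference from H2O to DOX in replicate 1 correlated with that in replicate 2 at r = 0.191 over 12290 promoter regions and r = 0.06 over 6137 distal regions, and had the same sign at 58.98% and 51.69% of them. These are descriptions across regions, which share libraries and are not independent replicates. The fitted change in shDPPA2+4 correlated with that in shDPPA2 at r = 0.426 and with that in shDPPA4 at r = 0.325 over all 22060 regions. These lines share no library, but libraries with the same replicate number deviated together. The correlations were 0.33 to 0.509 over 15 pairs of groups within and across lines, and at most 0.495 across lines. The change in shDPPA2+4 minus the mean change of the single knockdowns was called at 0 of 22060 regions (0.0%; edgeR), with 532 (2.41%) at an unadjusted p under 0.05.

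**Figure D2:**
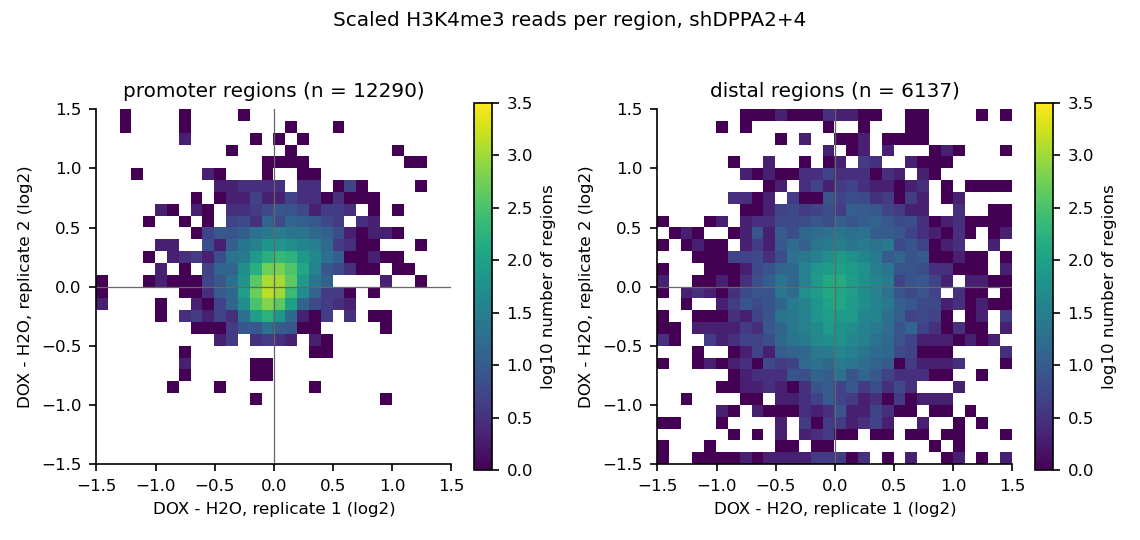
Difference in scaled H3K4me3 reads from H2O to DOX (log2) in replicate 1 (x axis) against replicate 2 (y axis) for promoter regions and distal regions of shDPPA2+4, coloured by the log10 number of regions in each bin, with larger differences drawn in the outermost bins. Both clouds centre near 0, and the promoter cloud is tighter than the distal one.

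The promoter regions with the smallest p for more reads with DOX were those of MVB12B, FBRSL1, GRK3, JAG2, HDAC4 and SMCO4. None of the 6 was called. At MVB12B, which encodes a subunit of the ESCRT-I sorting complex (chr9:126325401-126328500), scaled reads were 29.2 and 33.9 with H2O and 40.0 and 48.9 with DOX. Both DOX libraries lay above both H2O libraries, as at 11.2% of all tested regions, with a difference of 0.50 ± 0.07 on the log2 scale (SE, edgeR adjusted p = 0.0543). At JAG2, a Notch ligand (chr14:105166201-105169900), the values were 41.6 and 53.4 with H2O and 57.4 and 71.9 with DOX. At HDAC4, a class IIa histone deacetylase (chr2:239398901-239403400), they were 69.3 and 75.0 with H2O and 84.8 and 93.6 with DOX. The groups did not overlap at these genes either, with changes of 0.45 ± 0.07 (adjusted p = 0.0543) and 0.31 ± 0.05 (adjusted p = 0.0617). FBRSL1, a relative of AUTS2, went from 40.2 and 50.2 to 58.1 and 67.3, and GRK3, a kinase of G protein-coupled receptors, from 46.3 and 58.7 to 64.1 and 74.3. In the single knockdowns the fitted change at these 6 regions was 0.12 to 0.29 in shDPPA2 and 0.10 to 0.32 in shDPPA4.

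The promoter regions with the smallest p for fewer reads with DOX were those of HSPA5, SLC33A1, SSR3, SEPHS2, HSP90B1 and ZNF573, again with none called. HSPA5 encodes the chaperone BiP of the endoplasmic reticulum, and its domain (chr9:125234601-125244100) held 236 and 214 scaled reads with H2O and 190 and 162 with DOX. Its DOX libraries lay below its H2O libraries, by a log2 difference of -0.36 ± 0.05 (SE, edgeR adjusted p = 0.0543). HSP90B1, which encodes the chaperone GRP94 of the same compartment (chr12:103927901-103934200), had 130 and 117 with H2O and 106 and 102 with DOX. SSR3, a subunit of the translocon-associated protein complex (chr3:156547601-156556900), had 8200 and 7900 bp called with H2O and 6000 and 6200 bp with DOX, and its scaled reads changed by -0.34 ± 0.06. SLC33A1, an acetyl-CoA transporter of the endoplasmic reticulum membrane, had 141 and 148 with H2O and 115 and 121 with DOX, and SEPHS2, which makes selenophosphate, had 75.9 and 69.8 with H2O and 64.4 and 56.7 with DOX. The groups stayed apart at these 5 genes, which a choice by smallest p favours, and overlapped at ZNF573, a zinc finger gene. Over all tested regions both DOX libraries lay below both H2O libraries at 11.2%. The fitted change at the 6 regions was -0.16 to -0.32 in shDPPA2 and -0.06 to -0.25 in shDPPA4.

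Distal regions had the larger log2 differences and the larger errors. The region with the smallest p for more reads lay inside ZFPM1, 35653 bp from the start of ZC3H18 (chr16:88532901-88536600), with 30.9 and 42.8 scaled reads with H2O and 45.6 and 61.8 with DOX (0.55 ± 0.11, adjusted p = 0.10, edgeR). A weaker region 282600 bp from RIMS1 had 2.30 and 2.09 with H2O and 5.35 and 6.66 with DOX (1.49 ± 0.36, adjusted p = 0.156). The other 4 lay nearest VSTM2L, OR1J1, ADGRL3 and LRMDA, with changes of 0.33 to 1.36. In the other direction, the region 92875 bp from PARD3B (chr2:204448901-204456300) had 51.1 and 37.7 with H2O and 36.2 and 28.3 with DOX (-0.46 ± 0.08, adjusted p = 0.0617). A region 374220 bp from IRS1 had 16.0 and 11.1 with H2O and 8.52 and 5.27 with DOX (-0.99 ± 0.19, adjusted p = 0.0809). The other 4 lay nearest FA2H, TRPS1 and, with 2 regions inside the gene, the adhesion receptor gene ADGRL2, with changes of -0.39 to -0.89. None of these 12 distal regions was called, and the groups did not overlap at any of them, which a choice by smallest p favours.

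**Figure D3:**
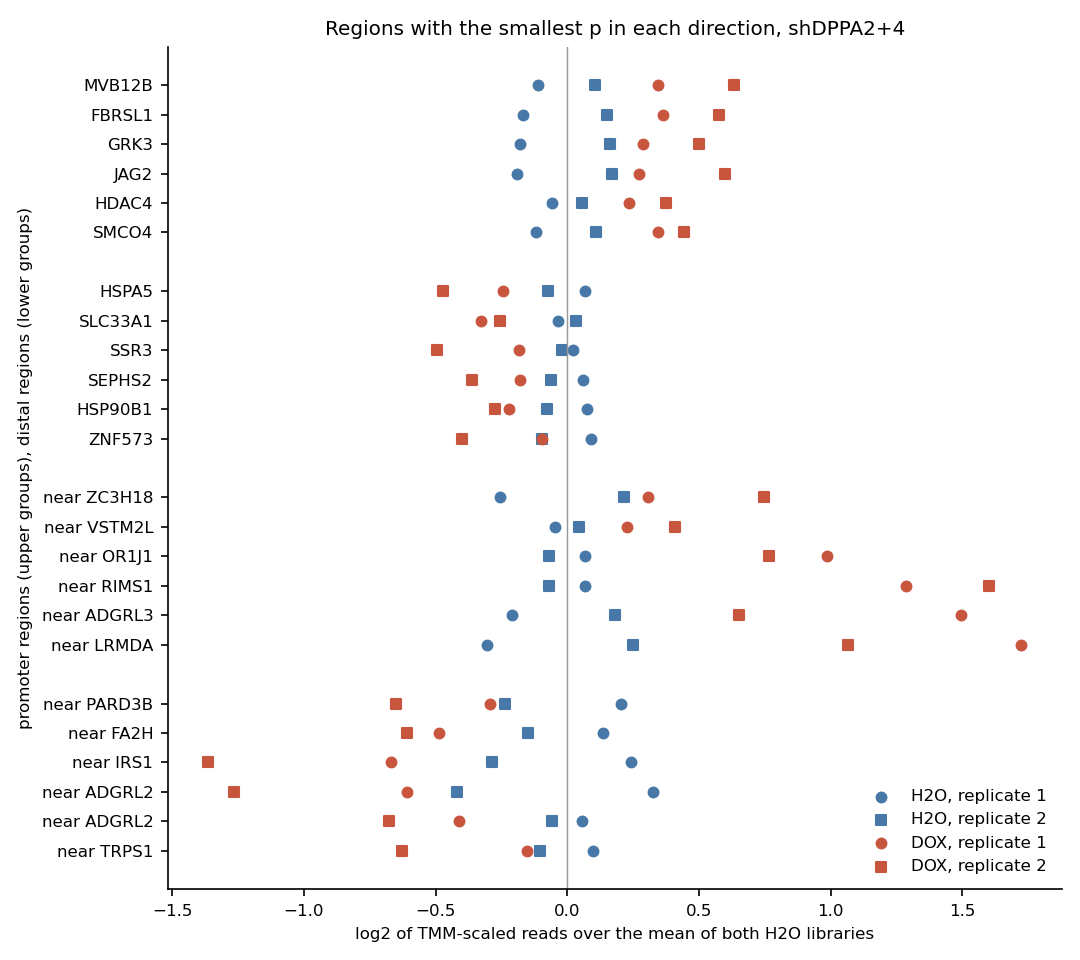
Scaled H3K4me3 reads of each shDPPA2+4 library, as log2 over the mean of both H2O libraries (x axis), for the promoter and distal regions with the smallest p in each direction (y axis). DOX points (red) lie to 1 side of the H2O points (blue) at every region but ZNF573, where they overlap, and none of the regions was called.

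Over all distal regions, fewer reads were the more common direction at an unadjusted p under 0.05. Of 6137 distal regions, 179 were higher (2.917%) and 386 lower (6.29%), against 896 higher (7.29%) and 623 lower (5.069%) of 12290 promoter regions. The median change was -0.025 at distal and 0.006 at promoter regions, relative to 0.001 over all regions, and both took the sign of the shift under the recovered totals. The distal median was 0.034 in replicate 1 and -0.071 in replicate 2, so its direction came from replicate 2. It was -0.029 in shDPPA2 and -0.058 in shDPPA4.

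Read density, the reads per kb of called domain, was called changed at 2 of 22060 regions (0.00907%), both lower with DOX. At an unadjusted p under 0.05, 826 regions (3.74%) were higher and 756 (3.43%) lower. At FAM177A1 (chr14:35043001-35052000) the called length was 5300 and 4900 bp with H2O and 8000 and 7000 bp with DOX, while scaled reads were 312, 286, 313 and 224 in the same order. The density there differed by -0.68 ± 0.12 on the log2 scale (SE, edgeR adjusted p = 0.0334) and the reads by -0.17 ± 0.10 (adjusted p = 0.522). In the single knockdowns its density changed in the same direction, by -0.48 in shDPPA2 and -0.57 in shDPPA4. The other region, 153926 bp from LONRF1 and at an annotated start other than a canonical protein-coding one, was 100 bp long in both H2O libraries and 400 bp in both DOX libraries, the lower lengths being a single bin of the caller. Its scaled reads were 5.28, 5.37, 6.33 and 5.14, and its density change was -1.85 ± 0.29 (adjusted p = 0.00595). That change was 0.04 in shDPPA2 and -0.08 in shDPPA4. Neither call was made without the replicate block, nor with any 1 of the 4 libraries left out.

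Domain width was tested at 14993 regions that were a single domain in each of the 12 libraries. With limma 0 were called (0.0%), 583 (3.89%) were wider and 114 (0.76%) narrower at an unadjusted p under 0.05, and the median change was 0.045 on the log2 scale. The median was 0.0 in replicate 1 and 0.077 in replicate 2, the pair with the deeper DOX library, and 0.096 and 0.085 in the fits of shDPPA2 and shDPPA4. The smallest p for wider was at a domain inside STARD10, a lipid transfer protein gene, and 12447 bp from its canonical start, with 1500 and 1800 bp under H2O and 2600 and 2800 bp under DOX. The change was 0.72 ± 0.14 (SE, adjusted p = 0.931, limma). The promoter domain of POMT1, a protein O-mannosyltransferase gene, was 700 bp in both H2O libraries and 1300 and 1400 bp in the DOX libraries (0.95 ± 0.20, adjusted p = 0.996). At LHPP, a phosphatase gene, the promoter domain was 2500 and 2300 bp with H2O and 1700 and 1500 bp with DOX (-0.59 ± 0.15, adjusted p = 0.996). The widths did not overlap between treatments at these 3 domains, which the choice by p again favours. Both DOX widths were above both H2O widths at 17.1% of the 14993 regions and below them at 6.71%. The others with the smallest p lay at or near MAP3K7, LONRF1 and SRSF12 (wider, 0.51 to 2.00) and ENSG00000267552, FAM241A, OGFRL1 and CTNNA2 (narrower, -0.38 to -1.82).

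The widest promoter region ran over HOXC5 to HOXC11 (chr12:53972201-54034600), named by HOXC9, with 59200 and 60700 bp called with H2O and 60200 and 60700 bp with DOX. It held 1220 and 1260 scaled reads with H2O and 1160 and 1210 with DOX (-0.07 ± 0.05, adjusted p = 0.622, edgeR). The lengths overlapped between treatments, and both read values were lower with DOX. NR2F1, an orphan nuclear receptor gene, had 46100 and 46300 bp with H2O and 46800 and 47700 bp with DOX. NKX2-1, the lineage factor of lung epithelium, had 32700 and 31200 bp with H2O and 32700 and 33900 bp with DOX. SOX2, a pluripotency and airway factor, had 35200 and 36400 bp with H2O and 37600 and 34900 bp with DOX. The ranges of called length touched or overlapped at NKX2-1 and SOX2 and not at NR2F1, where both DOX values were higher. Over these and the wide domains of NR2F2, SKIDA1, HDAC9, COL5A2 and COL11A1 the fitted change in reads was -0.18 to -0.01. HDAC9 was the one at -0.18 ± 0.05, with 345 and 356 scaled reads under H2O and 321 and 296 under DOX (adjusted p = 0.178).

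Changes in reads ran with the width of the promoter domain, set here from the H2O libraries of the other lines. The median change was 0.126 in 314 domains under 1000 bp and 0.09 in 1916 domains of 1000 to under 2000 bp. It was 0.005 from 2000 bp, -0.025 from 4000 bp and -0.043 in the 331 domains of at least 8000 bp. Of the latter, 3 were higher and 56 lower at an unadjusted p under 0.05 (17.82% together), against 7.29% and 5.069% of all promoter regions. The higher median of narrow domains came from replicate 2, with medians of -0.006 and 0.213 in replicates 1 and 2 under 1000 bp. The widest group gave -0.041 and -0.043. The same order was seen in the single knockdowns, whose own H2O libraries set the groups. From the narrowest to the widest group the median ran from 0.123 to -0.087 in shDPPA2 and from 0.109 to -0.071 in shDPPA4. In replicate 2 of shDPPA2+4 the median log2 change in called length was 0.152 in the narrowest group and 0.034 in the widest. It was 0.0 in both groups in replicate 1. The median density change was 0.069 in the narrowest group and -0.017 in the widest. The part of called length in the read changes was not tested.

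Bivalent promoters, with H3K4me3 and H3K27me3 in the H2O libraries of this line, nearly all kept H3K4me3. A class needs the mark in both H2O libraries, so the share still marked with DOX can only be lower. Of 1650 such promoters, 98.24% were still marked in DOX replicate 1 and 99.7% in DOX replicate 2, against 99.78% and 99.93% of 11753 H3K4me3-only promoters. Of the 1543 tested regions of bivalent promoters, 0 were called by edgeR. At an unadjusted p under 0.05, 201 regions (13.03%) were higher and 14 (0.9073%) lower, against 7.29% and 5.069% of all promoter regions, with a median change of 0.101. That median was -0.02 in replicate 1 and 0.191 in replicate 2, so the direction was not shared by the pairs. It was 0.111 in shDPPA2 and 0.061 in shDPPA4, and under the recovered totals 0.306 or 0.007 beside 0.211 or -0.088 over all regions. Bivalent domains were narrower than H3K4me3-only ones, with median lengths of 2117 and 3033 bp, and width and class were not tested apart.

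At H3K4me3-only promoters the values differed with H2AK119ub, the mark of the Polycomb complex PRC1. These classes came from H2AK119ub libraries of the same line (replicates 1 and 3), and changes are relative to the median of all regions, as under the recovered totals both classes turned with it. With H2AK119ub (6095 promoters, 5385 regions) 523 regions were higher (9.712%) and 138 lower (2.563%) at an unadjusted p under 0.05, against 7.29% and 5.069% of all promoter regions, with a median of 0.025. Without it (3004 promoters, 2565 regions) 24 were higher (0.9357%) and 296 lower (11.54%), with a median of -0.05. The medians of the class with H2AK119ub were 0.004 and 0.038 in replicates 1 and 2, so its higher median came mainly from replicate 2. They were 0.023 and 0.024 in shDPPA2 and shDPPA4. The medians of the class without H2AK119ub were -0.03 and -0.067 in replicates 1 and 2, and -0.056 and -0.033 in shDPPA2 and shDPPA4. At the 375 promoters where H2AK119ub itself went from both H2O libraries to neither DOX library, 0 of 333 regions were called, 9 were higher (2.703%) and 22 lower (6.607%), and the median was -0.02. H3K4me3 remained at 99.47% of these promoters in DOX replicate 1 and at all of them in DOX replicate 2. Over all H3K4me3-only promoters it remained at 99.78% and 99.93%.

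**Figure D4:**
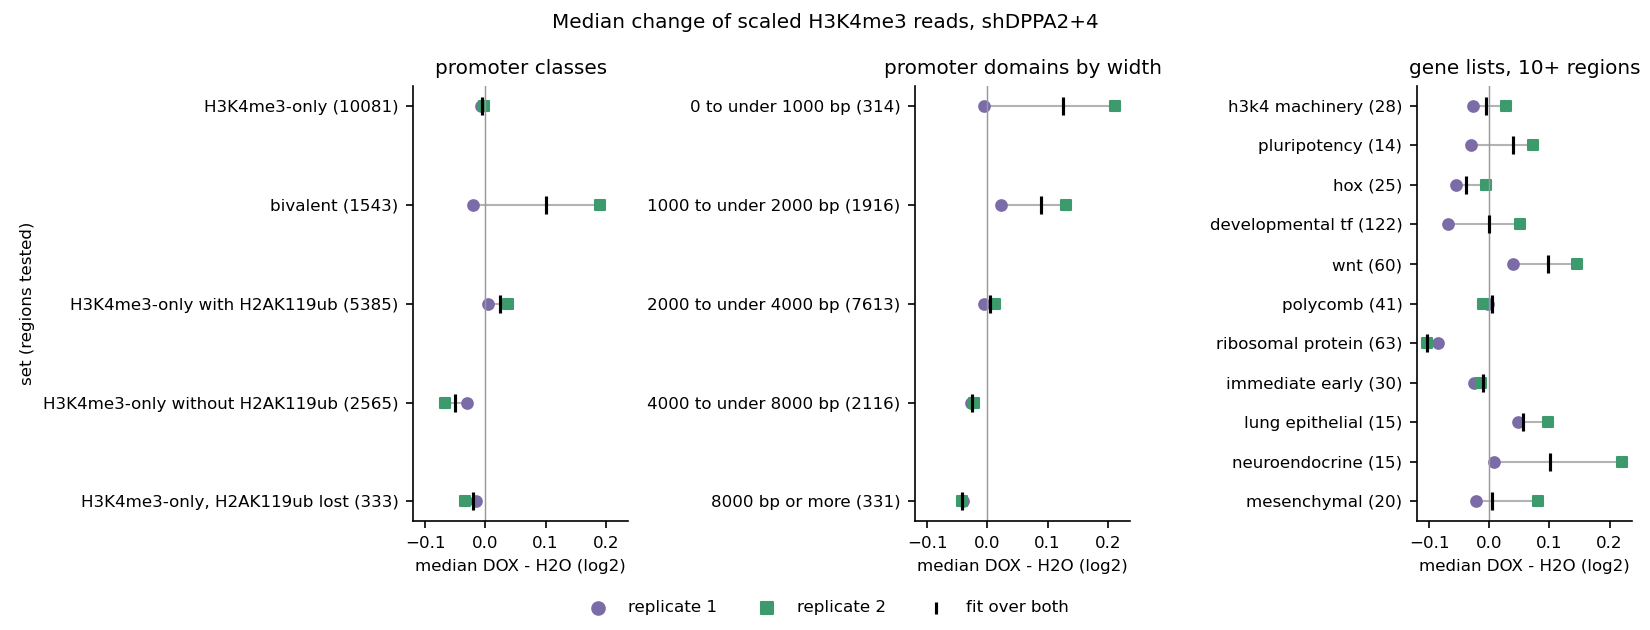
Median difference in scaled H3K4me3 reads from H2O to DOX (log2, x axis) in shDPPA2+4 for promoter classes, promoter domains by width and gene lists, with replicate 1 (circle), replicate 2 (square) and the fit over both (bar). Replicates 1 and 2 lie together for wide domains and ribosomal protein genes, and apart for bivalent promoters (-0.02 and 0.191) and for domains under 1000 bp (-0.006 and 0.213).

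The genes that write, read and erase H3K4 methylation were marked throughout. All 28 genes of that list, COMPASS subunits and KDM5 and KDM1 demethylases among them, were marked in all 4 libraries. Of their 28 regions 0 were called and 0 passed an unadjusted p of 0.05 in either direction, with fitted changes of -0.09 to 0.12. WDR5, the scaffold of COMPASS, was highest at 0.12 ± 0.06 (adjusted p = 0.468, edgeR), with 58.3 and 74.0 scaled reads under H2O and 64.6 and 78.9 under DOX. HCFC1, a subunit shared by SETD1 and KMT2A complexes, was lowest at -0.09 ± 0.05 (adjusted p = 0.519). Of the 41 Polycomb genes, 1 was higher and 2 lower at an unadjusted p under 0.05, against 5.79% and 5.35% of all regions. Among them BMI1, a core PRC1 subunit, had 114 and 115 with H2O and 123 and 132 with DOX (0.16 ± 0.05, adjusted p = 0.273).

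Among the lists, ribosomal protein genes and Wnt genes gave the most regions past an unadjusted p of 0.05. Of 63 ribosomal protein regions, 0 were higher and 26 lower at an unadjusted p under 0.05, against 5.35% lower of all regions, with 0 called. The list's median was -0.104, at -0.086 and -0.103 in replicates 1 and 2, beside 0.001 over all regions. It was -0.122 in shDPPA2 and -0.077 in shDPPA4, and in shDPPA2+4 it was 0.104 under the recovered totals that put the median of all regions at 0.211, so its sign turned while it stayed below that median. RPL37 had 174 and 164 scaled reads with H2O and 154 and 136 with DOX (-0.23 ± 0.05, adjusted p = 0.156, edgeR). Of 60 Wnt pathway regions, 12 were higher and 3 lower, against 5.79% and 5.35% of all regions, with a median of 0.098 (0.04 and 0.145 in the 2 pairs, and 0.003 to 0.302 under the recovered totals). The Wnt genes with the largest changes were LGR6, an R-spondin receptor (3.90 and 4.17 with H2O, 5.79 and 6.86 with DOX), SFRP5, a secreted Wnt inhibitor (6.32 and 7.15, then 7.86 and 10.0), and RSPO4, an R-spondin ligand (26.6 and 35.8, then 33.1 and 44.2). The groups overlapped at RSPO4 and not at LGR6 and SFRP5, whose adjusted p values were 0.362 and 0.559.

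Most germline genes and genes of zygotic genome activation carried no domain, while most HOX and developmental transcription factor genes were marked. Of all 20007 protein-coding promoters, 13873 were marked in all 4 libraries and 5787 in none. Of 26 germline genes 18 were marked in no library, and of 16 genes of zygotic genome activation 13 were marked in none. Of 25 pluripotency genes 14 were marked in all 4 libraries, and PRDM14 had the largest change among them, with 21.9 and 24.5 scaled reads under H2O and 26.7 and 30.7 under DOX (0.31 ± 0.09, adjusted p = 0.23, edgeR). Of 39 HOX genes 33 were marked in all 4 libraries, and their 25 regions changed by -0.16 (HOXD13) to 0.34 (HOXD10). Of 138 developmental transcription factor genes 13 were marked in none. Of 122 regions of this list 4 were higher and 7 lower at an unadjusted p under 0.05, against 5.79% and 5.35% of all regions. The extremes were POU4F2 at -0.58 ± 0.27 (5.05 and 3.78 with H2O, 2.62 and 3.16 with DOX, adjusted p = 0.448) and ISL1 at 0.52 ± 0.28 (3.79 and 4.47, then 5.46 and 6.33, adjusted p = 0.52).

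Lists of cell state gave 0 called regions each. Their marked genes are given beside 13873 of all 20007 promoters marked in all 4 libraries and 5787 marked in none. Of 33 lung epithelial genes 15 were marked in all 4 libraries. The changes at 15 regions of this list ran from -0.1 to 0.75, with a median of 0.056 and a median density change of -0.074. The highest was AGER, an alveolar type I marker. It had 3.79 and 3.08 scaled reads with H2O and 6.22 and 5.41 with DOX (0.75 ± 0.28, adjusted p = 0.351, edgeR). Its density changed by -0.3 ± 0.25, and its reads changed by 0.04 in shDPPA2 and -0.35 in shDPPA4. FOXA1, a pioneer factor of endoderm, had 34.7 and 39.5 with H2O and 41.4 and 49.0 with DOX (0.29 ± 0.08, adjusted p = 0.229). Of 20 mesenchymal regions, FAP had the lowest change at -0.33 ± 0.17 and SNAI2 the highest at 0.44 ± 0.28. Among 15 neuroendocrine regions the changes ran from -0.05 to 0.33 (SYP), and among 30 immediate early regions from -0.15 (FOSL1) to 0.19 (DUSP2). The blood list had 24 of 31 genes without the mark in any library.

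By presence alone, 6 promoters lost H3K4me3 (0.03% of 20007) and 24 gained it (0.12%). A promoter lost the mark when both H2O libraries and neither DOX library had 300 bp of it under domains, and gained it in the reverse case. With replicate 1 or replicate 2 left out, the counts were 43 or 82 lost and 144 or 91 gained. NCCRP1 had 1000 and 900 bp with H2O, TLR6, a Toll-like receptor gene, 1200 and 700 bp, MARCHF1, a membrane E3 ubiquitin ligase gene, 1000 and 600 bp, and LRRN1, a neuronal leucine-rich repeat gene, 700 and 600 bp, and all 4 had 0 bp in both DOX libraries. DDT went from 500 and 500 bp to 100 and 200 bp, and MIA from 321 and 321 bp to 221 and 121 bp, so these last 2 kept part of a domain. The 4 emptied promoters held 11 to 28 reads per H2O library, near the lower limit of a call.

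SOX14, a transcription factor gene of the developing nervous system, gained most, with 0 bp in both H2O libraries and 1300 and 2100 bp in the DOX libraries, which held 30 and 82 reads. ENPP5 gained 900 and 900 bp, FAM110C 700 and 1100 bp, SLC9C1, a sperm sodium and proton exchanger gene, 900 and 800 bp, and MAT1A, the liver methionine adenosyltransferase gene, 800 and 800 bp, each from 0 bp in both H2O libraries. The other 5 with the largest gains were RIIAD1, UGT3A2, FGF14, GJC3 and NFE2, with 400 to 1000 bp in the DOX libraries. SOX14 was already marked in other lines without induction, with means of 1100 and 550 bp in the H2O libraries of shDPPA2 and shDPPA4. At ENPP5 these means were 500 and 500 bp, at SLC9C1 500 and 850 bp and at RIIAD1 650 and 700 bp. FAM110C had 800 and 0 bp, UGT3A2 450 and 250 bp, and GJC3 600 and 150 bp. FGF14 had 250 and 0 bp and NFE2 250 and 300 bp. MAT1A had 0 bp in all 8 libraries of the other lines. Of the 24 gained promoters, 18 had more covered bp with DOX and 4 less in shDPPA2, and 17 more and 4 less in shDPPA4. Over all promoters whose covered bp differed, 70.0% had more with DOX in shDPPA2 and 71.07% in shDPPA4, so more covered bp was the common direction there. Of the 6 lost promoters, 3 had less and 3 more in shDPPA2, and 0 less and 4 more in shDPPA4. These are counts of presence in 2 libraries against 2, with no test.

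**Figure D5:**
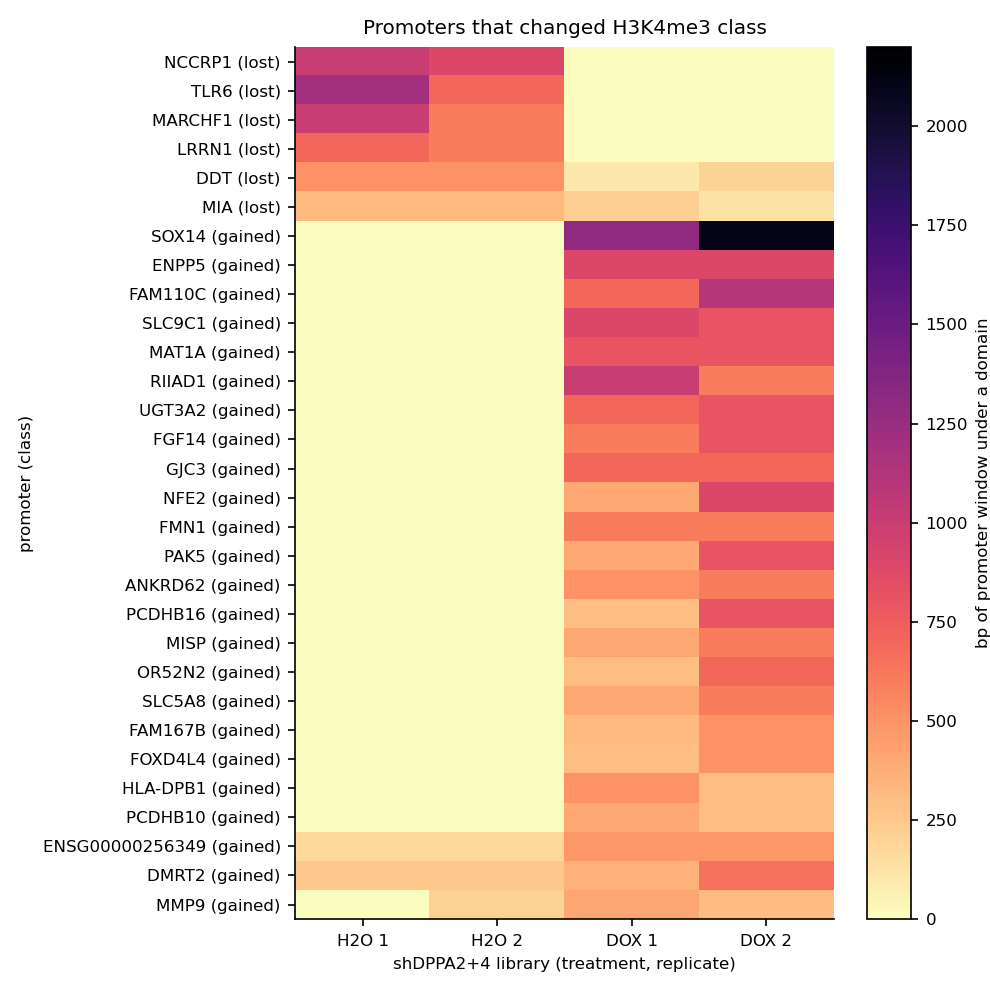
Base pairs of the promoter window under a domain (colour, 0 to 2200 bp scale) in the 4 shDPPA2+4 libraries for the promoters that lost or gained H3K4me3. SOX14 is the darkest, at 1300 and 2100 bp in the DOX libraries and 0 bp in the H2O libraries, and most others stay under 1000 bp.

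Whole domains that came or went were mainly distal and weak. Of 30878 regions with a domain in any of the 4 libraries, 23734 (76.9%) had one in all 4. In both H2O libraries and neither DOX library were 265 regions (0.858%), with a median of 650 bp and 15.5 reads. Of them 217 were distal, 1.65% of the 13180 distal regions. In both DOX libraries and neither H2O library were 473 (1.53%), with a median of 650 bp and 19.5 reads. Of these 369 were distal, 2.8% of the distal regions. Of the 265, 12 were lost by the same rule in shDPPA2 and 19 in shDPPA4, and of the 473, 48 and 31 were gained. No rate over all regions was computed to set beside these recurrences.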

How the data were processed

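ChIP reads had been trimmed (Trim Galore 0.6.6), aligned to a human and mouse genome (BWA 0.7.13) and filtered (SAMtools 1.9, Picard 2.6.0) by the authors, who called EPIC2 domains (100 bp bins, 1 gap, fragments of 147 bp) in each library against input. The deposited lists give whole-number ChIP and input counts per domain, a log2 fold over input, a p-value with its FDR, and a score. Domains with log2 fold above 1.0 and FDR under 0.05 were used. No blacklist was applied here. Transcript starts came from GENCODE 44.

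Counts of each library's domains were summed per merged region. Regions with a mean of at least 10 reads and a domain in all 12 libraries were fitted with edgeR 4.0.16 (TMM, quasi-likelihood) in R 4.3.3. Density used called length as an offset, and width was fitted with limma 3.58.1. DESeq2 1.42.0 was an alternative. The fits hold 6 groups of line and treatment and 2 libraries each, with replicate number as a block, since the study states that replicates were prepared as complete batches. Same-numbered libraries deviated together in all 15 pairs of groups (0.33 to 0.509). Replicates are separate libraries of 1 line, so p-values measure the spread between these. The fits were tested on simulated data. Reads in domains ranged from 8814290 to 15285727 in the 4 libraries, and precision is lowest for domains of few reads. Scores and input counts served no test.

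Members and gene lists were chosen with earlier results of these data known. Named were DPPA2 and DPPA4, the 6 regions with the smallest p in each direction at promoter and distal sites, the 5 for width, the 10 largest promoter losses and gains, the 10 widest promoter domains (1 of them not reported here) and the largest changes of each list. The region near LONRF1 and FAM177A1 are named as the only density calls. Libraries of other marks entered only to define promoter classes and 1 reading of input depth.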

Additional observations from a re-analysis of the deposited data

How the results depend on the processing

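For summed reads, 0 regions were called. The count was 1 with all deposited peaks, 1 with peaks above a log2 fold of 2, 13 with the 4 libraries of the line alone, 13 with domains in at least 2 of its libraries, 53 with the likelihood ratio test and 658 with recovered library totals (639 higher), and 0 to 284 with a library or replicate left out. The 284 came without DOX replicate 1, and 152 without replicate 1. With input depth read at H3K27me3 domains, an alternative chosen after seeing the data, the recovered totals gave 0. Without the replicate block, summed reads again gave 0 (612 at an unadjusted p under 0.05 against 2458) and density gave 0 in place of 2. Density gave 1 with peaks above a log2 fold of 2, 16 with the 4 libraries alone, 1 with recovered totals, 7 with the likelihood ratio test and 0 to 0 with libraries left out. Width gave 1 for the total called length and 0 to 1 with libraries left out. The difference from the single knockdowns gave 2 with peaks above a log2 fold of 2, 1 with the likelihood ratio test, 22 with domains in at least 2 libraries and 0 to 17 with libraries left out. Lost promoters numbered 20 and gained ones 38 with peaks above a log2 fold of 2, gained ones 43 at 1000 bp, and with 1 pair alone 43 to 82 were lost and 91 to 144 gained. Medians with 1 pair alone were -0.013 to -0.003 at H3K4me3-only promoters and 0.0 to 0.038 at those with H2AK119ub, and the median where H2AK119ub was lost was -0.003 with classes at 1000 bp. Of 359 checks of the 24 named regions, 35 were called and 0 reversed. The cause of these differences was not tested, other than fewer libraries where some were left out. Low reads limit small distal domains most.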
